A study of Homo sapiens and Mus musculus with 54 samples.

Results

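The 10 genes described here encode protein parts of the lipoproteins, the particles in which blood carries lipid, and proteins that travel with them: APOA1, APOA2, APOA4, APOA5, APOB, APOC1, APOC3, APOE, APOH and APOM. They were chosen by name as a family and located in RefSeq GRCh38. They are 10 of the 19974 protein-coding genes counted there on the autosomes and X. Every interval of a deposited peak list that lay within 50 kb of a gene body was taken. These windows form 6 loci, because APOA5, APOA4, APOC3 and APOA1 share a cluster on chromosome 11, and APOE and APOC1 share one on chromosome 19. They held 64 of 56739 entries of the AhR list, 75 of 62761 of the C/EBPα list, 112 of 97145 of the H3K27ac list named for the inhibitor experiment, and 113 of 106666 of the other H3K27ac list, here called the untreated list because its experiment had no inhibitor. Coordinates are in hg38, the build of the lists. Genes of a cluster share most of these entries, so they are not separate observations.

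The lists come from HepG2, a human liver cancer cell line, on day 12 of culture with or without vitamin B2 (riboflavin). Chromatin immunoprecipitation and sequencing (ChIP-seq) of the aryl hydrocarbon receptor AhR and of C/EBPα used 2 B2-deficient and 2 control libraries each, and that of H3K27ac used 5 B2-deficient and 5 control libraries. A further H3K27ac experiment had 2 B2-deficient libraries with an AhR inhibitor, 2 B2-deficient libraries with DMSO, the vehicle, and 2 control libraries with DMSO. Inputs were 2 libraries shared by the B2-deficient AhR and C/EBPα ChIP, 2 for control AhR and 2 for control C/EBPα. The 24 mouse libraries of the 54 in the series were not used here. Chromatin for AhR and C/EBPα was fixed with the protein crosslinker DSG and then formaldehyde, and chromatin for H3K27ac with formaldehyde alone. The lists give positions without a value for any library. The depth is unknown, no B2-deficient library was compared with a control, and what follows says where entries lie, not how strong they are or in which condition they arose. The 7 hepatocyte markers (such as ALB and SERPINA1) had a median of 41 entries of the untreated H3K27ac list within 50 kb, from 17 to 61, against a median of 4 for the 4 leukocyte markers. Markers of endothelial cells (median 27), stellate cells and fibroblasts (17) and cholangiocytes (9) also had entries.

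The liver makes most circulating apolipoproteins. APOB is the scaffold of very low density and low density lipoproteins, and APOA1 and APOA2 are the main proteins of high density lipoprotein, while the smaller exchangeable apolipoproteins govern lipolysis and uptake. AhR is a ligand-activated transcription factor that pairs with ARNT, C/EBPα is a transcription factor of differentiated hepatocytes, and acetylation of histone H3 at lysine 27 marks active enhancers and promoters.

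Before the start sites of APOH, APOM and APOA5, AhR and C/EBPα entries overlapped, though the shared bases did not reach the start itself. Start sites came from the RefSeq promoter table of GRCh38.p14, in which 7 of the 10 genes were found with 10 windows of 300 bases (250 before and 50 from the start site on). APOA1, APOB and APOC3 were not found. The first 3 windows below are shown because entries of both factors covered part of them, and capitals mark the bases that lie in an AhR entry and a C/EBPα entry at once. The fourth, of APOA4, is shown because it held no entry but held the AhR-ARNT core letters, which are in capitals on either strand. Each is read along the gene's own strand.
APOH, chr17:66229366-66229665, minus strand: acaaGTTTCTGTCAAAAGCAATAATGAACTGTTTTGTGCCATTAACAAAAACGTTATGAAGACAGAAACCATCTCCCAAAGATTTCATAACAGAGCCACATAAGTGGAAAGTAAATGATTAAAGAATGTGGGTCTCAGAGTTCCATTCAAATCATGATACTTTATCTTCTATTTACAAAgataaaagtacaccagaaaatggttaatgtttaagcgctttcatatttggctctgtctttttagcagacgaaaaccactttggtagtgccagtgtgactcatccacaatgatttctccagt
APOM, chr6:31655644-31655943, plus strand: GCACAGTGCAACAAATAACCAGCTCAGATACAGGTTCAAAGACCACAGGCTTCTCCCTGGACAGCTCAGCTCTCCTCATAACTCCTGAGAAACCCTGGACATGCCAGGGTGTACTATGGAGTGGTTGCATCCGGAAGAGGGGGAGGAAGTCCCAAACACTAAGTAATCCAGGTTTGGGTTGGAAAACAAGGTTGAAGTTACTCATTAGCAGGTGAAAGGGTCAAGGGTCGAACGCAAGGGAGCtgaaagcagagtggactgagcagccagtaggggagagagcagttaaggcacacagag
APOA5, chr11:116792371-116792670, minus strand: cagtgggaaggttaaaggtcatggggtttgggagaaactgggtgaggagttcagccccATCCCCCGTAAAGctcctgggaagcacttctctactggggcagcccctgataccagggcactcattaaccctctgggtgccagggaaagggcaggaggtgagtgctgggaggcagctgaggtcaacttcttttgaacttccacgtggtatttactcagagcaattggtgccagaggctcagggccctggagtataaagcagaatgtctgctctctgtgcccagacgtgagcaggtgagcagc
APOA4, chr11:116823255-116823554, minus strand: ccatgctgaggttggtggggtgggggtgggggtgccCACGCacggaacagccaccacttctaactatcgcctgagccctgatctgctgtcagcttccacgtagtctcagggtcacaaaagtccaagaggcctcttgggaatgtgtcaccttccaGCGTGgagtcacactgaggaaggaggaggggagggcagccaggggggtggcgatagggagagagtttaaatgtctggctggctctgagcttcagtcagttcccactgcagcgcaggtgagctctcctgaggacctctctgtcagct

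In the APOH window an AhR entry covered bases 5 to 295 and a C/EBPα entry bases 1 to 179, so that 175 bases lay in both. APOH encodes beta-2-glycoprotein I, a plasma protein that binds anionic phospholipid. In the APOM window the AhR entry covered bases 1 to 243 and the C/EBPα entry bases 1 to 252, with 243 bases in both. APOM carries sphingosine-1-phosphate in high density lipoprotein. At APOA5, an activator of triglyceride lipolysis, the entries only touched: AhR covered bases 59 to 287 and C/EBPα bases 1 to 71, with 13 in both. The entries themselves were chr17:66229371-66229661 (AhR) and chr17:66229487-66229701 (C/EBPα) at APOH, chr6:31655629-31655886 and chr6:31655453-31655895 at APOM, and chr11:116792384-116792612 and chr11:116792600-116792840 at APOA5. Each AhR entry of these had a merge number of 2 and each C/EBPα entry one of 3. The merge number is the last part of an entry's name and is read here as the number of peaks that were merged into it. APOE had an AhR entry alone, at the last of its 3 windows (chr19:44906310-44906558, bases 160 to 300), and APOA2 a C/EBPα entry alone (chr1:161223571-161223799, bases 80 to 300), both with a merge number of 1.

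Altogether AhR entries met 4 of the 10 windows, against 6.26% of 34943 windows of all genes in the table, and C/EBPα entries met 4 of 10, against 8.36%. No entry of either H3K27ac list met any of the 10, against 3.01% for the inhibitor list and 3.17% for the untreated list. Within 1 kb of a start site, 5 of the 7 genes had an AhR entry, against 15.7% of 15812 genes, and 5 of 7 had a C/EBPα entry, against 23.4%. None of the 7 had an H3K27ac entry there, against 1.7% for the inhibitor list and 1.79% for the untreated list.

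The letters GCGTG, the core bound by AhR with ARNT, were searched on both strands. They stood in 2 of the 10 windows, against 36.5% of all windows, and in 46.2% of windows with an AhR entry. The 2 were the APOA4 window, at base 37 on the opposite strand and base 155 on the gene's strand, and the second APOA5 window, at bases 9 and 43 on the opposite strand. None of these matches lay inside an AhR entry. The longer form TNGCGTG, which contains GCGTG, stood in none of the 10 windows and in 5.50% of all. TTNNGCAA, a form bound by C/EBP factors, stood in none of the 10, in 10.5% of all windows and in 21.0% of those with a C/EBPα entry. CAAAGTCCA, a form bound by HNF4, stood in none and in 0.383% of all. CCAAT stood in 3 windows (34.6% of all), TATAAA in 1 (11.6%) and GGGCGG in 2 (44.9%). These are matches of letters in 300 bases, and most AhR and C/EBPα entries at the 10 genes lay outside such windows. Guanine and cytosine made up 35.0% of the bases at APOH, 51.3% at APOM, 56.0% at APOA5 and 59.3% at APOA4.

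In the wider windows the apolipoprotein genes had more AhR and C/EBPα entries than most genes, and APOB had far more H3K27ac entries than the rest. All 10 genes had an AhR entry within 50 kb, which 85.4% of protein-coding genes also had, and all 10 had a C/EBPα entry, against 88.6%. The same held for H3K27ac in the inhibitor list (88.1% of genes) and the untreated list (90.4%). These shares are near the background, so the numbers of entries per gene are given as well. The median gene of the 10 had 14 AhR entries, against 4 over all genes, and 15 C/EBPα entries, against 4. For H3K27ac it had 10 entries in the inhibitor list, against 6, and 10 in the untreated list, against 7. Per 100 kb of window the medians were 13.7 AhR entries, against 2.58, and 14.4 C/EBPα entries, against 2.94. For H3K27ac they were 9.75 per 100 kb in the inhibitor list, against 4.18, and 9.75 in the untreated list, against 4.72.

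Closer in, all 10 genes still had an AhR entry within 10 kb, against 64.6% of genes, and all 10 a C/EBPα entry, against 70.8%. For H3K27ac it was 9 of 10 in the inhibitor list, against 70% of genes, and 9 of 10 in the untreated list, against 72.9%, APOA5 being the exception in each. Inside the gene body, 6 had an AhR entry, against 47% of genes, and 7 a C/EBPα entry, against 51.4%. The body held H3K27ac at 3 genes, APOB, APOH and APOC1, in the inhibitor list (49.8% of genes) and in the untreated list (51.8%). When each entry was given to its nearest gene, all 10 kept an AhR entry, against 59.4% of genes, and 9 a C/EBPα entry, against 64.4%. By that rule 5 kept an H3K27ac entry of the inhibitor list, against 65%, and 5 one of the untreated list, against 67.8%. APOA1, APOC3, APOA5, APOA2 and APOM kept none.

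**Figure D1:**
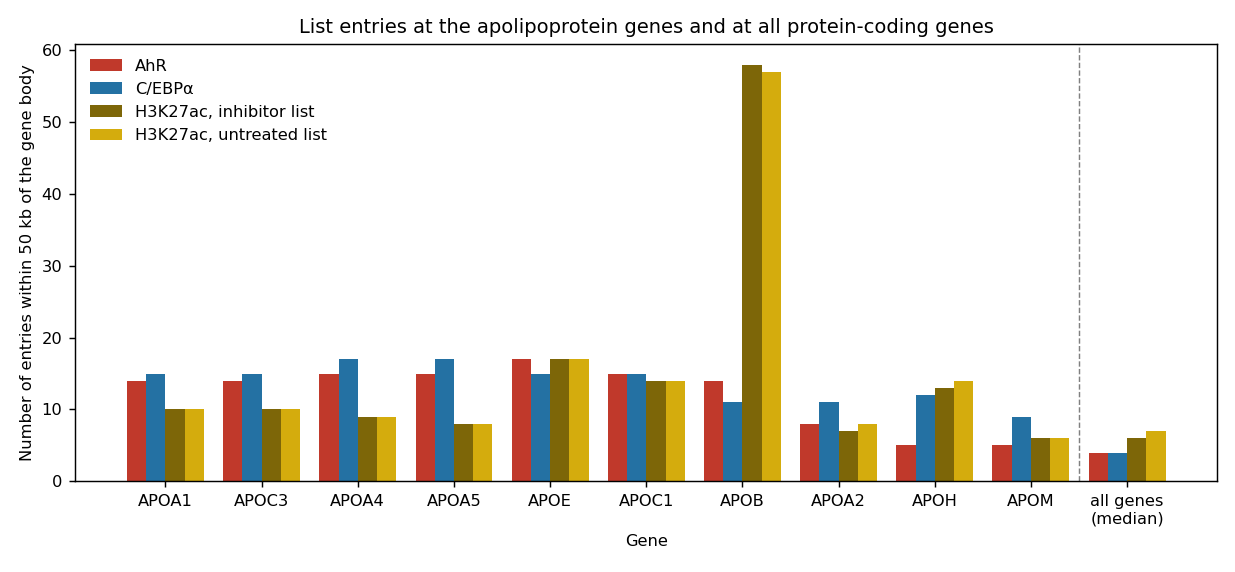
Bars give, for each gene on the horizontal axis, the number of entries within 50 kb of its body in the 4 HepG2 lists, with the median over all 19974 protein-coding genes at the right of the dashed line. APOE has 17 AhR entries and APOH and APOM 5 each, and APOB stands out with 58 and 57 H3K27ac entries.

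For AhR, 7 of the 10 genes lay above 11 entries, the 90th percentile of all genes, and for C/EBPα 6 lay above the 90th percentile of 12. The 7 were APOB and the genes of both clusters, and the 6 were the genes of both clusters alone. Genes of a cluster share most entries, so these counts repeat the same entries. APOE, the ligand through which remnant particles reach their receptors, had the most AhR entries at 17, a number reached by 2.95% of genes. APOC1 on the same cluster, which restrains lipoprotein uptake, had 15 (4.22% of genes). APOA4 and APOA5 had 15 each, and APOA1 and APOC3, the inhibitor of lipolysis, had 14 each (5.30% of genes). APOB had 14, APOA2 had 8 (21.2% of genes), and APOH and APOM had 5 each (41.9%). APOA4 and APOA5 had 17 C/EBPα entries each, APOA1, APOC3, APOE and APOC1 15 each, APOH 12, APOB and APOA2 11 each, and APOM 9 (21.2% of genes). APOH and APOM had the fewest AhR entries of the 10 genes, at 5 each, still above the all-gene median of 4.

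On chromosome 11 the AhR entries crowded round APOC3 and APOA1, where H3K27ac had none. The cluster runs through APOA5 (116789367 to 116792420), APOA4 (116820700 to 116823304), APOC3 (116829907 to 116833072) and APOA1 (116835751 to 116837622). It held 15 AhR entries, 17 C/EBPα entries and 11 H3K27ac entries in each list. Of the 15 AhR entries, 12 overlapped a C/EBPα entry by at least 1 bp, 4 overlapped an H3K27ac entry of the untreated list, and 12 had a merge number of 2. A stretch of 14.8 kb, chr11:116826484-116841277, contains APOC3 and APOA1 whole and no H3K27ac entry of either list. It held 9 AhR entries, of which 7 overlapped a C/EBPα entry and 8 had a merge number of 2, and 7 C/EBPα entries. The H3K27ac entries on either side lay 3424 bp below APOC3 and 3656 bp beyond APOA1. Both H3K27ac lists hold few entries within 3 kb of start sites, as described below, and the stretch was not tested against that. The stretch was singled out after its values were seen. Its 9 AhR entries included 1 across the lower-coordinate end of APOC3, 1 at 345 bp below APOA1 (that is, toward lower coordinates) and 1 at 63 bp beyond APOA1. The widest AhR entries of the 10 windows, of 636 and 627 bp, lay between the 2 genes, against a median width of 240.5 bp for the 64 and 234 bp for the whole list. An AhR entry of this cluster had up to 9 others within 10 kb of its centre, a number reached by 0.264% of AhR entries, while C/EBPα reached 6 (2.07%). The H3K27ac entries here had at most 4 within 10 kb, which 34.5% of the untreated list reached.

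The sites of the chromosome 11 cluster with all 3 signals lay on the other side, between APOA5 and APOA4. They were chr11:116808360-116808598 and chr11:116808973-116809219, 12102 and 11481 bp below APOA4, and chr11:116816483-116816712, 3988 bp below it. APOA5 itself had no H3K27ac entry over 63.4 kb around it, in which 2 AhR entries, both with C/EBPα, and 4 C/EBPα entries lay whole. APOA4, a protein of chylomicrons and high density lipoprotein, had no entry of AhR or C/EBPα in its body, its nearest AhR entry lying 2895 bp and its nearest C/EBPα entry 3499 bp from the start. The other genes within 50 kb of a cluster gene were ZPR1 (1344 bp from APOA5), SIK3 (5780 bp from APOA1) and BUD13 (16380 bp from APOA5). Of the 15 AhR entries, 2 lay nearer to such a gene than to an apolipoprotein gene.

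**Figure D2:**
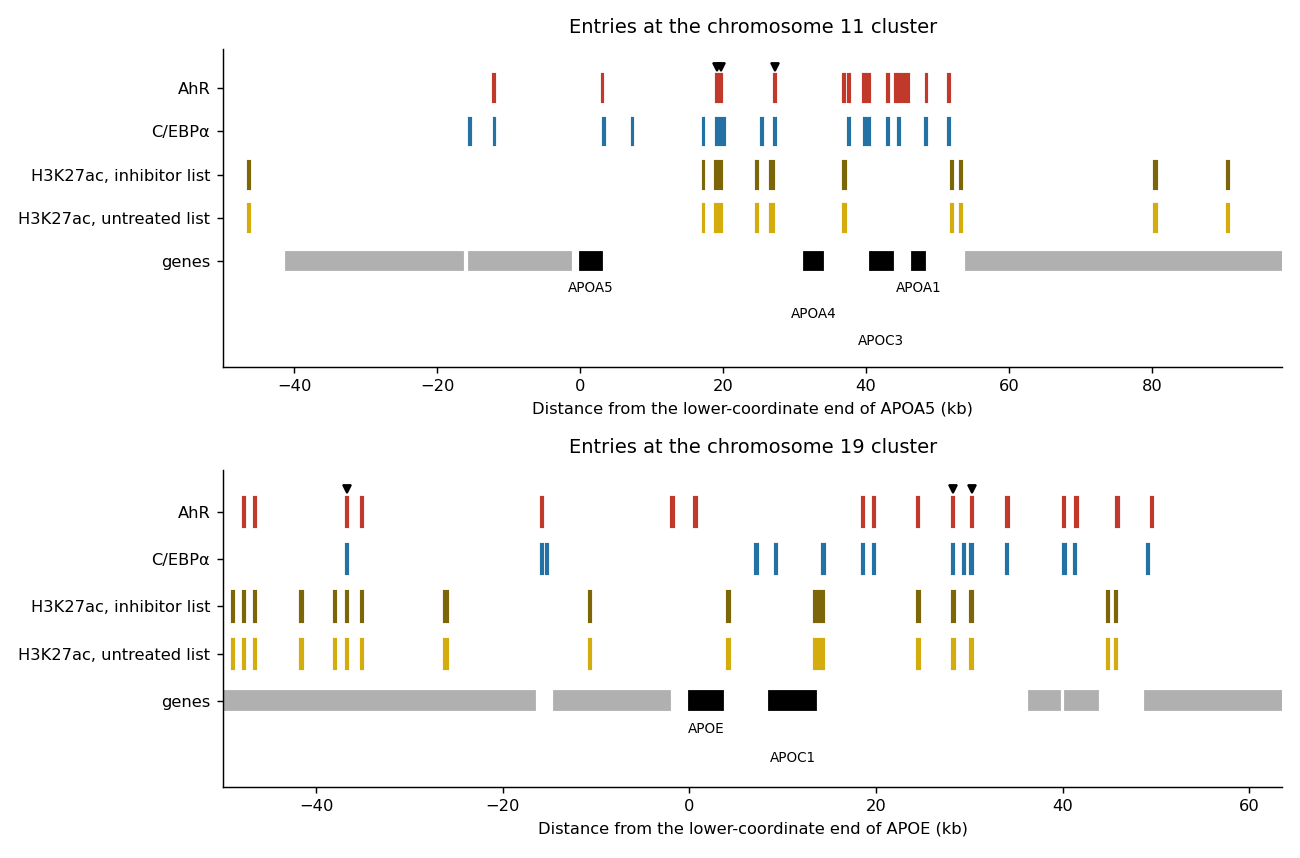
The 2 gene clusters are drawn with the lower-coordinate end of APOA5 (top) and of APOE (bottom) at 0, distance in kb on the horizontal axis. Boxes are list entries (at least a hairline wide) with 1 row for each list, and arrowheads mark AhR entries that overlap a C/EBPα and an untreated-list H3K27ac entry. Black boxes are the apolipoprotein genes described here, and grey boxes are other protein-coding genes, APOC2 and APOC4 among them. AhR entries crowd round APOC3 and APOA1, where the H3K27ac rows are empty. The gene body itself is overlapped by 2 AhR entries at APOC3, 0 at APOA1 and 1 at APOE. Near start sites in general both H3K27ac lists hold few entries.

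On chromosome 19 the many AhR entries of APOE and APOC1 mostly belonged, by distance, to other genes. APOE spans 44905796 to 44909393 and APOC1 44914325 to 44919346. The cluster held 17 AhR entries, 15 C/EBPα entries and 17 H3K27ac entries in each list. Of the 17 AhR entries, 13 lay nearer to another gene: TOMM40 (2107 bp from APOE), NECTIN2 (16573 bp from APOE), APOC4 (22891 bp from APOC1), APOC2 (26705 bp from APOC1) or CLPTM1 (35239 bp from APOC1). APOC2 is the cofactor of lipoprotein lipase. When each entry was given to its nearest gene, APOE kept 1 AhR entry and no C/EBPα entry. APOC1 had a C/EBPα entry 306 bp from its start, and its nearest AhR entry lay 4941 bp beyond the gene body. Of the 17 AhR entries 9 overlapped C/EBPα, 8 overlapped H3K27ac and 9 had a merge number of 2. The 3 sites with all signals were chr19:44868992-44869213, chr19:44933952-44934197 and chr19:44935922-44936145, all nearest to NECTIN2 or APOC4. Between the H3K27ac entries on either side of APOE lay 14.5 kb with 2 AhR entries and no C/EBPα entry.

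APOB had the densest H3K27ac entries of the 10 genes. APOB spans 42645 bases (chr2:21001429-21044073), and 41 H3K27ac entries lay in its body in each list, covering 48.6% of it. Of 19974 genes 8, APOB among them, were covered to that extent or more, and the all-gene median in the untreated list was 0.221%, with a 99th percentile of 16.5%. The window held 58 H3K27ac entries in the inhibitor list and 57 in the untreated list, and 0.401% of genes reached that 57. An H3K27ac entry there had up to 21 others within 10 kb, which 0.168% of the untreated list reached, and the widest entry measured 2214 bp. The longest stretch between AhR entries in the body, chosen for holding none, measured 31.4 kb, and 33 H3K27ac entries and 1 C/EBPα entry lay whole inside it. At the higher-coordinate end, 3 AhR entries, all with C/EBPα, and 3 C/EBPα entries stood in a gap of 6.47 kb without H3K27ac. That gap reached 3395 bp below the gene end and 3079 bp above it. Whether it is part of the scarcity of H3K27ac entries near start sites, described below, was not tested.

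Of the 14 AhR entries at APOB, 11 overlapped H3K27ac and 8 overlapped C/EBPα, and each overlapped at least 1 of them. The 5 sites with all signals were chr2:21038652-21038897 inside the gene, and chr2:21047424-21047656, chr2:21056452-21056675, chr2:21067191-21067453 and chr2:21092492-21092739 beyond it. No other protein-coding gene lay within 50 kb, although 1 AhR entry at the rim was nearer to TDRD15, outside the window. Among the other 9 genes, H3K27ac covered 6.14% of the body of APOH, 3.17% of APOC1 and none of the rest.

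**Figure D3:**
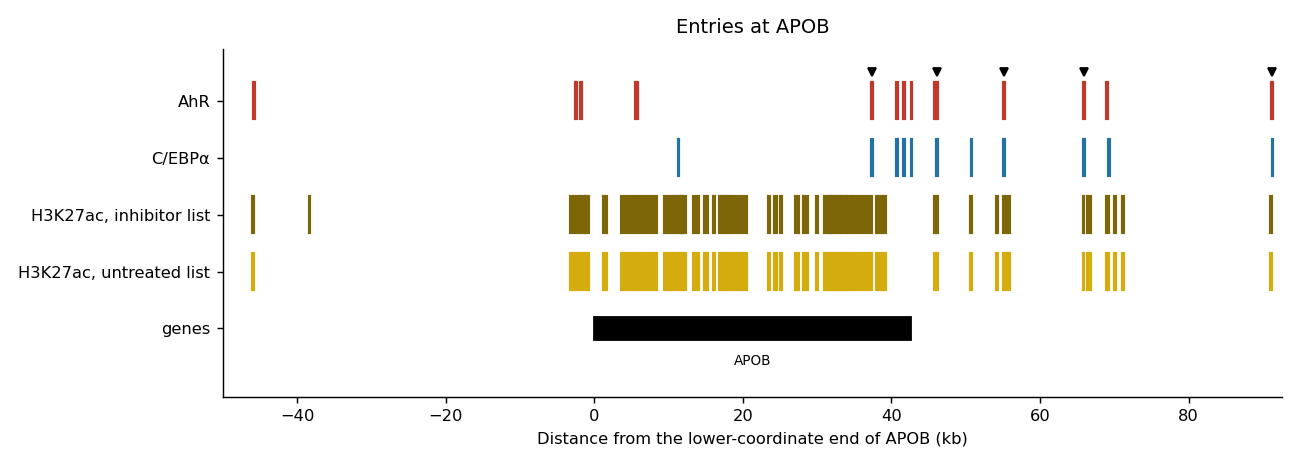
Entries at APOB are drawn in kb from the lower-coordinate end of the gene, with rows, boxes and arrowheads as in the cluster maps. H3K27ac fills much of the body, and 3 AhR and 3 C/EBPα entries stand in the gap of 6.47 kb without H3K27ac at the higher-coordinate end. Near start sites in general both H3K27ac lists hold few entries.

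The remaining loci were sparser. APOA2 (chr1:161222292-161223628) had 8 AhR entries, of which 6 lay nearer to another gene (among those within 50 kb are FCER1G, TOMM40L, NR1I3, ADAMTS4, PCP4L1, PPOX and B4GALT3, the nearest, TOMM40L, at 2432 bp). NR1I3 encodes the receptor CAR. Of the 8, 6 overlapped C/EBPα and 3 overlapped H3K27ac, and the sites with all signals, chr1:161218653-161218873 and chr1:161220010-161220327, lay 3419 and 1965 bp below the gene. APOH (chr17:66212033-66229415) had 5 AhR entries, of which 4 overlapped C/EBPα, 4 overlapped H3K27ac and 4 had a merge number of 2. Its sites with all signals were chr17:66233125-66233361 and chr17:66235432-66235647, 3710 and 6017 bp beyond the start end of the gene, and chr17:66275684-66275895, nearest to PRKCA. CEP112 was the single other gene within 50 kb, at 19900 bp.

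APOM (chr6:31652404-31658210) lies in a gene-dense region with 11 other genes in reach: BAG6 overlaps it, C6orf47 lies 88 bp away, and GPANK1, CSNK2B, LY6G5B, PRRC2A, LY6G5C, ABHD16A, AIF1, LY6G6F and LY6G6F-LY6G6D lie 3018 to 48656 bp away. Of its 5 AhR entries, 4 were nearer to another gene and 1 was the entry 8 bp before its start site. A single site had all signals, chr6:31643255-31643463, nearest to BAG6. The H3K27ac lists left 30.5 kb round APOM empty, which held 2 AhR and 6 C/EBPα entries. The gap round APOA2 was also 30.5 kb, with 3 AhR and 3 C/EBPα entries whole inside it. Its higher-coordinate edge was an entry of the untreated list alone, so the gap in the inhibitor list is longer.

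**Figure D4:**
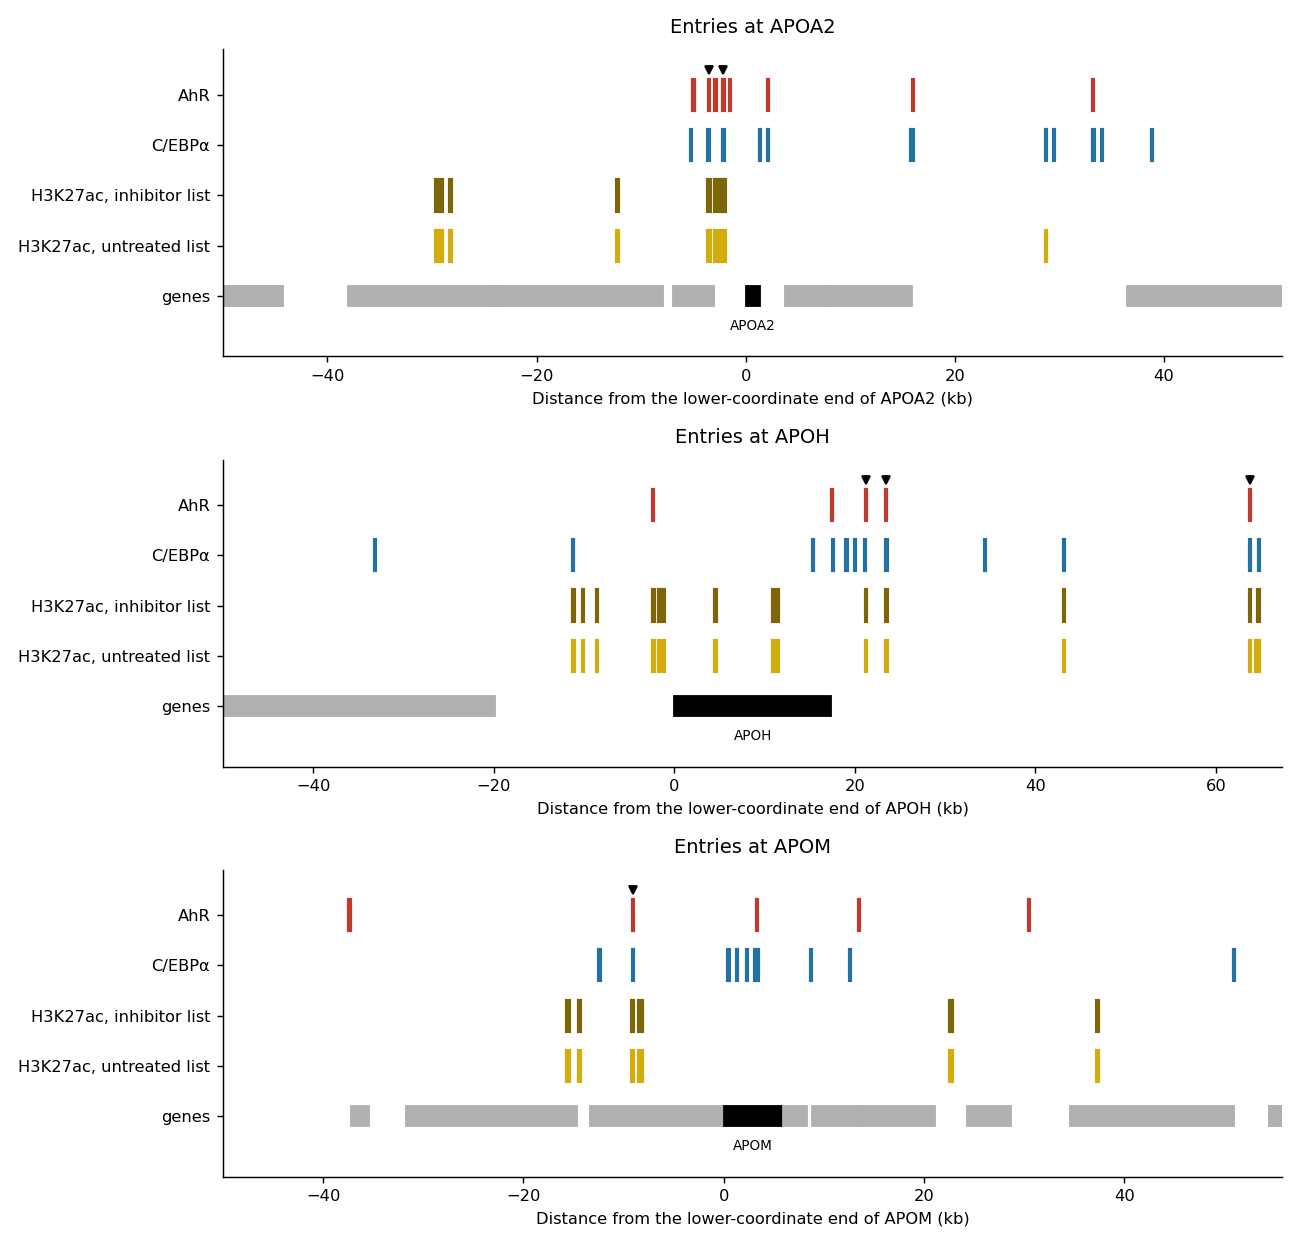
Entries at APOA2, APOH and APOM are drawn in kb from the lower-coordinate end of each gene, with rows, boxes and arrowheads as in the cluster maps. APOM has 5 AhR entries scattered across its window, APOH 5 with 3 arrowheads, and APOA2 8, of which 5 lie close below the gene.

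Across the 6 loci a larger share of AhR entries met C/EBPα than met H3K27ac, where the whole list had the other order. Of the 64 AhR entries, 41 overlapped a C/EBPα entry, 64.1% (95% exact interval 51.1 to 75.7), against 55.3% of the whole AhR list. Only 31 of 64 overlapped an H3K27ac entry of the untreated list, 48.4% (35.8 to 61.3), against 70.7% of the whole list. These Clopper-Pearson intervals cover counting error only, and neighbouring entries are not independent, so they are too narrow. In classes, 17 AhR entries (26.6%) met both, against 41.1% of the list, 24 (37.5%) met C/EBPα alone, against 14.2%, 14 (21.9%) met H3K27ac alone, against 29.5%, and 9 (14.1%) met neither, against 15.1%. Every gene had at least 1 entry with all signals within 50 kb, with a median of 3, where 62.2% of all genes had 1 or more, with a median of 1. From the side of C/EBPα, 41 of 75 entries overlapped AhR, 54.7%, against 50.1% of the list, and 26 of 75 overlapped H3K27ac, 34.7% (24.0 to 46.5), against 48.7%. The median distance of an AhR entry's centre to the nearest H3K27ac centre was 494.5 bp at the 10 genes, against 44 bp over the list, while that to C/EBPα was 70.8 bp, against 75.5 bp.

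At these genes merge numbers of 2 were the more frequent where C/EBPα was present. Of the 64 AhR entries, 40 had a merge number of 2, 62.5%, against 42.3% of the list with 2 or more. It was 13 of 17 (76.5%) where both other signals lay, against 63.8% of that class in the whole list, and 20 of 24 (83.3%) with C/EBPα alone, against 33.1%. With H3K27ac alone it was 5 of 14 (35.7%), against 31.6%, and with neither 2 of 9 (22.2%), against 13.3%. In the whole list the classes with C/EBPα alone and with H3K27ac alone thus had near shares, where the apolipoprotein windows had 20 of 24 and 5 of 14. Of those 24, 9 lay in the chromosome 11 cluster, and all 9 had a merge number of 2. Merge numbers were not split by distance to start sites.

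The low share with H3K27ac moved with the distance to start sites, near which both H3K27ac lists hold few entries. In the untreated list 1184 entries lay 2 to 3 kb from a placed start site and 3931 lay 3 to 4 kb away. Only 4.66% of entries on chromosomes with placed starts lay within 3 kb of one. The AhR list showed no such step, with 1683 and 1604 entries in the same distance ranges. Of the 64 AhR entries, 31 lay within 3 kb of a start site, or of either end of a gene without a placed start, 48.4%, against 15.5% of the whole list. By placed start sites alone it was 18 of 64, 28.1%, against 13.5% of entries on chromosomes with such starts. Under the wider rule, used for the shares that follow, APOA1, APOB and APOC3 count by both gene ends. Of the 31, 3 overlapped H3K27ac, 9.68%, against 21.4% of the list within 3 kb. Of the 33 farther out, 28 did, 84.8% (68.1 to 94.9), against 79.8%. C/EBPα entries had the same pattern, with 1 of 38 within 3 kb, 2.63%, against 13.2%, and 25 of 37 beyond it, 67.6%, against 56.4%. The share of AhR entries with C/EBPα was 64.5% within 3 kb, against 50.2% of the list, and 63.6% beyond it, against 56.3%. Within 3 kb, then, more AhR entries met C/EBPα than H3K27ac both at these loci and in the whole list. Beyond 3 kb both had the reverse order. The absence of an H3K27ac entry near a start therefore does not by itself show a lack of acetylation at these genes. That limit also applies to the gaps without H3K27ac described above. The cause of the step was not tested.

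**Figure D5:**
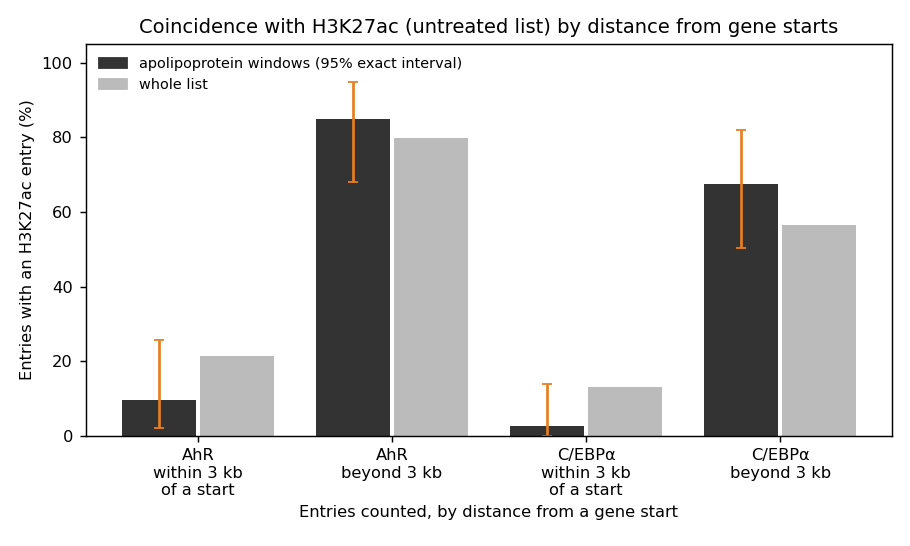
Bars give the percentage of AhR and C/EBPα entries that overlap an H3K27ac entry of the untreated list, within and beyond 3 kb of gene starts, for the apolipoprotein windows (dark, with 95% exact intervals for counting error) and the whole list (grey). Genes without a placed start count by both ends. Beyond 3 kb the AhR share is 84.8% against 79.8%, and within 3 kb it is 9.68% against 21.4%.

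The inhibitor list and the untreated list were almost the same at these genes. Of 112 entries of the inhibitor list, 111 stood at identical positions in the untreated list with the same merge number, 99.1%, against 95.9% of the whole inhibitor list. They were 98.2% of the 113 entries of the untreated list, against 87.4%. The inhibitor list alone had chr2:20962963-20963215, 38214 bp below APOB. The untreated list alone had chr1:161250905-161251113 in the APOA2 window, nearest to PCP4L1 and overlapping a C/EBPα entry, and chr17:66276388-66276609 in the APOH window, nearest to PRKCA, each with a merge number of 1. In the whole lists all 93202 shared entries had the same merge number, and 0 unshared entries of either list overlapped the other list. Whether both lists were drawn from a common merged set of peaks is unknown here. Their sameness is therefore not read as a result about these genes, and the lists are not separate observations. The inhibitor list is named for an experiment that also had DMSO libraries, so the lists do not compare inhibitor with vehicle.

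A list of 39 other genes of lipoprotein handling was counted in the same windows. An AhR entry lay within 50 kb of 37 of 39, against 85.4% of all genes, with a median of 7 entries, and a C/EBPα entry of 37, against 88.6%, with a median of 8. H3K27ac lay near 37 of them in the inhibitor list (median 12), against 88.1% of all genes, and near 38 in the untreated list (median 13), against 90.4%. An entry with all signals lay near 32 of 39, against 62.2%, with a median of 2. Apart from the last, these counts are near the shares of all genes. LIPC, hepatic lipase, had 24 AhR, 25 C/EBPα and 38 untreated-list H3K27ac entries. SCARB1, the receptor for high density lipoprotein, had 21, 18 and 53. ABCA1, which loads cholesterol onto APOA1, had 14, 12 and 23. Genes at the lower end were MTTP, which loads lipid onto APOB, with 2, 5 and 5, and MYLIP, a ubiquitin ligase, with 1, 3 and 5. LPL, lipoprotein lipase of muscle and fat, had none in any list. GPIHBP1, which holds LPL on the capillary wall, had none for AhR and C/EBPα. APOC2 and APOC4 had 12 AhR and 14 C/EBPα entries each. They lie inside the chromosome 19 window and share entries with it. For AhR the 10 apolipoprotein genes had a median of 14 entries, against 7 for the 39. For H3K27ac the order was the other way, with medians of 10 against 12 in the inhibitor list and 10 against 13 in the untreated list. The 7 hepatocyte markers had a median of 22 AhR entries, above that of the apolipoprotein genes. These counts were not scaled to window length, which grows with the gene body, so longer genes can hold more entries. Whether either order holds per 100 kb was not tested.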

How the data were processed

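ChIP-seq peak lists of HepG2 were deposited by the authors as positions (name, chromosome, start, end, strand sign) in hg38, with no value per library. Per the submitters' processing notes, the tools were Bowtie2 and HOMER (no versions). Caller settings and the peak sets merged are unknown here. Of 6 deposited lists, 2 are of mouse and were not used here. Peaks that shared at least 1 bp were taken as overlapping, and genes came from RefSeq GRCh38.p14. The genes, the 39-gene list, the markers and the rule for naming (all 10 genes, every neighbour within 50 kb, each entry with all signals or at a start site) were chosen with earlier results of these data known. Some genes that the rule covers are not reported here. A comparison of conditions library by library was planned for the case that the files held counts, and could not be made. Alternatives were other windows, overlap rules, merge numbers and gene assignment. Overlap calls were tested on simulated data, where 100% of 20000 calls and 100% of the entry counts of 200 genes were correct. The work used SciPy 1.17.1, pandas 2.3.3, NumPy 2.4.6 and Matplotlib 3.10.9 under Python 3.11.15.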

Additional observations from a re-analysis of the deposited data

How the results depend on the processing

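The number of apolipoprotein genes with an entry within 50 kb stayed at 10, or at 9 for H3K27ac, with windows of 10 and 100 kb and with a merge number of 2 or more. Nearest-gene assignment left 5 genes for each H3K27ac list, and a start site within 1 kb left 5 for AhR, 5 for C/EBPα and 0 for each H3K27ac list. Medians per gene were 5 for AhR, 6 for C/EBPα and 3 for each H3K27ac list at 10 kb, and 15.5 (inhibitor) and 16.5 (untreated) at 100 kb. Within 1 kb of a start site they were 1, 1, 0 and 0. Smaller reaches hold fewer entries. Under nearest-gene assignment the medians were 2.5 for AhR, against 1 over all genes, and 4.5 for C/EBPα, against 1. For H3K27ac they were 0.5 in each list, against 2 over all genes, which turns the direction found within 50 kb (10 against 6 and 10 against 7), and the cause was not tested. With merge numbers of 2 or more the AhR median was 8.5, and no H3K27ac entry was left in the untreated list alone (0). The share of AhR entries with C/EBPα lay between 59.2% and 70.3% under every alternative run. Beyond 3 kb of starts by the wider rule above, an alternative chosen after seeing the data like leaving out loci, the share with H3K27ac was 84.8% for AhR and 67.6% for C/EBPα. Without the APOB window it was 40.0% for AhR. No paired analysis was possible because the lists hold no value per library, and for the same reason no replicate was left out. Peak height, condition and depth are not given in the lists.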

Other observations

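By the numbers of entries per 100 kb in the 4 lists, the genes outside these windows closest to the median of the 10 were SOCS6, ALDH3A2 and GSTO2. The distance, over the 4 values on a log2 scale, was 0.24 for SOCS6, 0.29 for ALDH3A2 and 0.29 for GSTO2. SOCS6 had 19 AhR, 17 C/EBPα, 14 inhibitor-list and 14 untreated-list H3K27ac entries. APOB was the farthest of the 10 from their own median at 2.14, and APOC3 the closest at 0.02.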
